A study of Mus musculus with 45 samples.

Results

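Fgf4, Utf1, Fbxo15 and Zfp42 are genes of mouse embryonic stem cells (mESC) whose enhancers are textbook examples of joint control by the transcription factors SOX2 and OCT4. The open chromatin regions (OCRs) described here are all ATACseq peaks whose summit lies within 20 kb of the GENCODE 5′ end of one of the 4 genes in mm10. The rule finds 37 of the 184964 peaks, with 10 at Fgf4, 9 at Utf1, 7 at Fbxo15 and 11 at Zfp42, and it uses no measured level. In ATACseq the transposase Tn5 cuts accessible DNA, so more fragments from a peak mean more open chromatin there. The experiment asked how accessibility changes when SOX2, OCT4 or NANOG is removed within hours, and the question for these genes is whether their peaks depend on SOX2 and OCT4 together.

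In the SOX2-FKBP and NANOG-FKBP lines the endogenous gene was homozygously fused to FKBP with an HA tag and a P2A-linked fluorescent reporter. The OCT4-FKBP line was provided by another group, and the methods do not describe its construct. In each line dTAG-13 directs the fusion protein to degradation. The SOX2-FKBP cells (IB10 mESC) received DMSO (NT, not treated) or 500 nM dTAG-13 for 0.5, 1, 2, 6 or 24 h, with 2 libraries for each. The OCT4-FKBP cells (v6.5 mESC) have NT and 2, 6 and 24 h, also with 2 libraries each. The NANOG-FKBP cells (E14 mESC) have the same times, with 2 NT libraries and 3 for each treated time. All cells were grown in serum-free medium with 2i and LIF, which holds mESC in the naive state, and NT cells carry the tag as well. The SOX2-FKBP and NANOG-FKBP lines are clonal and the parental lines differ, so levels are compared within a line. For SOX2 the methods mention duplicates and an independent clone without saying which library comes from it.

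SOX2 binds DNA through its HMG box and OCT4 through its POU domains. The proteins can bind side by side on a composite element, a SOX part followed by a POU part either directly or, as first described at Fgf4, with 3 bases between. Fgf4 encodes a growth factor that mESC secrete and that signals through FGF receptors to ERK. Utf1 encodes a chromatin-associated protein of pluripotent cells, Fbxo15 an F-box protein that is a classic reporter of pluripotency, and Zfp42 (Rex1) a zinc finger protein used as a marker of naive cells. NANOG is a homeodomain factor of the same network.

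Sequences from mm10 are shown for the Fgf4 and Utf1 peaks that hold a composite element, because the comparison of the lines turns on them, and for the Zfp42 peaks, which hold none. Capitals mark the element, TTGTN followed by ATGNNA for the composite elements, with the 3 spacer bases kept in capitals where there are any. For Zfp42 they mark an octamer, the OCT4 site ATGCNNAT.
Fgf4 +10.0 kb, chr7:144857727-144857752, plus strand: tttgttTTGTTTTAATGTTAaaatat
Fgf4 +17.3 kb, chr7:144864390-144864415, plus strand: aactctTTGTTTGGATGCTAatggga
Utf1 +1.9 kb, chr7:139945677-139945699, minus strand: ccgtcaTTGTTATGCTAgtgaag
Zfp42 +18.8 kb, chr8:43287401-43287420, minus strand: tgggaaATGCACATtcaagc
Zfp42 +17.2 kb, chr8:43289232-43289251, minus strand: taccatATGCTTATacaatg
Zfp42 +11.0 kb, chr8:43295708-43295727, plus strand: gtgtggATGCGGATatgggt
Zfp42 -0.1 kb, chr8:43307182-43307201, plus strand: tcagttATGCAAATgcctct

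Peaks are named by the distance of their summit from the gene's 5′ end, with upstream positions negative. The 2 Fgf4 elements have a 3 bp spacer, and the Utf1 element is direct. In the Fgf4 +17.3 kb peak an octamer begins within the composite element, since the letters of the POU part overlap it. The element lies 45 bp from the summit at Utf1 +1.9 kb, 236 bp at Fgf4 +17.3 kb and 324 bp at Fgf4 +10.0 kb. On both strands, 6 of the 37 peaks (16.22%) held a composite element, against 5.179% of all peaks. The other 3 of the 6 are Fbxo15 peaks, at -11.6 and -0.2 kb with a direct element and at +11.2 kb with a spaced one. The octamer was in 10 of the 37 (27.03%, all peaks 24.06%) and the SOX core CNTTGT in 28 (75.68%, all peaks 73.47%). A match is a description of the letters and does not show binding.

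The 37 peaks are wide and strongly open for this table. Their widths ran from 300 to 2440 bp with a median of 905, against 636 for all peaks, and their GC content from 40.6 to 68.2%. Levels are CPM, counts scaled to a common library size with TMM factors (edgeR's normalization) over all 31 libraries. The median peak had 8.83 CPM in NT SOX2-FKBP cells (range 1.88 to 44.9), against 2.42 for all peaks. By annotation 16 peaks are intergenic, 13 intronic, 4 in coding exons, 2 in other exons and 2 in untranslated regions. Some lie in neighbouring genes: the Fgf4 -8.5 kb peak is in a coding exon of Fgf3, the Utf1 peaks from -12.9 to -2.9 kb are in Kndc1, and those from +6.9 to +13.9 kb are in Gm16201. Genes were assigned by distance only.

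Total counts per library ran from 1817191 to 17575631, with a median of 9496229. The treated NANOG-FKBP replicate 2 libraries stand apart, with 1817191 to 3272168 counts and 13.18 to 17.56% of them mitochondrial, against at most 6.646% elsewhere. The share of counts on chromosome 8, which carries Zfp42, was 5.173 to 5.349% in SOX2-FKBP and 7.412 to 7.706% in OCT4-FKBP cells. In NANOG-FKBP it was 5.506 to 5.796% in 7 libraries and 6.998 to 7.104% in the other 4, which are NT replicate 2 and replicate 3 of each treated time. Peaks near Pou5f1 (191 to 300 CPM in NT), Sox2 (114 to 134) and Nanog (126 to 296) were open in all 3 lines, as mESC markers. Peaks near Cdx2 (58.6 to 154) and Gata6 (29.3 to 46.6), markers of other lineages, were open too, so these levels do not separate cell types. In bulk cells, fewer cells with an open site and a site that is less open in each cell cannot be told apart.

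After SOX2 degradation the peaks that lost accessibility within 2 h were 3 at Fgf4 (-18.9, +13.8 and the 3′ enhancer at +17.3 kb), Utf1 +1.9 kb just downstream of the gene, and 2 at Fbxo15 (the start and -2.2 kb). None of the 11 Zfp42 peaks was called lost before 24 h. A peak is called lost when it was lower than in NT cells, and gained when higher, at an adjusted p below 0.05 from edgeR's quasi-likelihood test with Benjamini-Hochberg adjustment over all peaks fitted, here 160432 peaks in 12 libraries. Below, "edgeR adjusted p" means this value, changes are log2 fold changes against NT of the same line, and SE is their approximate standard error.

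The counts of lost peaks among the 37 were 1, 2, 6, 5 and 13 after 0.5, 1, 2, 6 and 24 h. The shares of all peaks called lost at these times were 3.14%, 5.46%, 7.28%, 9.28% and 14.1%. The members' shares were 2.7%, 5.41%, 16.2%, 13.5% and 35.1%, so in this fit they lay near the background up to 1 h and above it from 2 h on. The background was not matched for level, and the members had a higher median NT level (8.83 against 2.42 CPM in SOX2-FKBP cells). In the fit of all 3 lines, given below, the members' share of 2.7% at 2 and 6 h lay below the 5.06% and 6.83% of all peaks. The members' median log2 fold change was -0.05, -0.20 and -0.38 after 0.5, 2 and 24 h, while that of all peaks stayed between -0.01 and 0.04. At 24 h, 6 of 10 Fgf4 peaks, 2 of 9 Utf1 peaks, 2 of 7 Fbxo15 peaks and 3 of 11 Zfp42 peaks were called lost. The 1 gain, against 9.17% of all peaks called gained, was Fbxo15 +16.8 kb (0.43, edgeR adjusted p = 0.035), an intronic peak within 500 bp of the start of the neighbour Timm21.

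**Figure D1:**
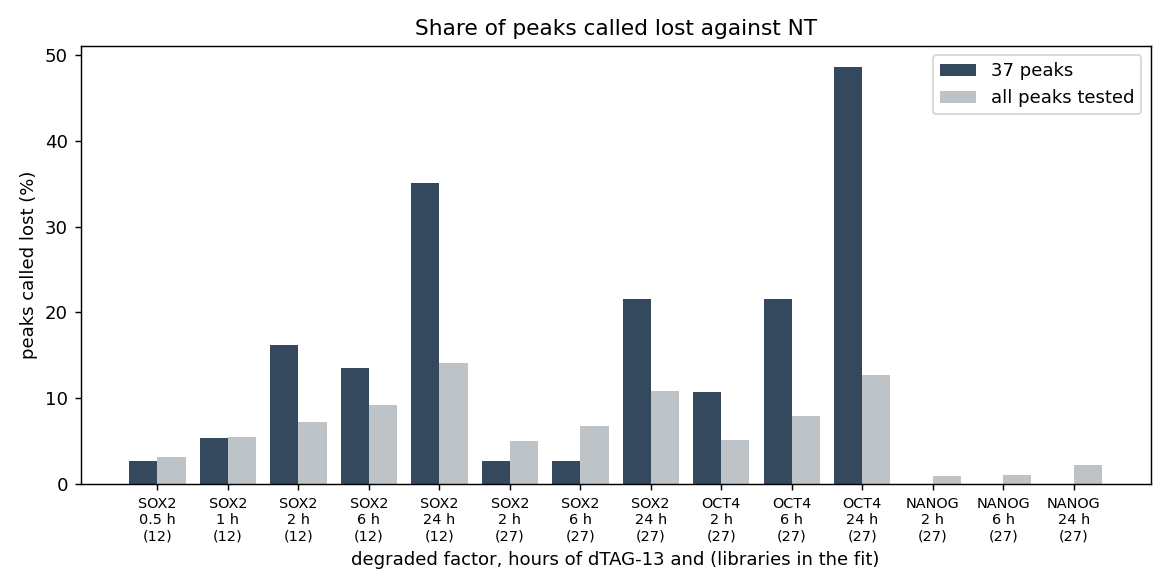
Percent of peaks called lost (y axis) for each degraded factor and time (x axis, with the number of libraries in the fit), for the 37 peaks (dark bars) and all peaks tested (light bars). The dark bars reach 35.1% for SOX2 at 24 h in the 12-library fit and 48.6% for OCT4 at 24 h in the 27-library fit, and are at 0 for NANOG at every time.

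The Fgf4 +17.3 kb peak (chr7:144864246-144865072, in the 3′ untranslated region, on the site of the known Fgf4 enhancer) responded earliest. Its level in the 2 NT SOX2-FKBP libraries was 17.9 and 20.4 CPM. It was 9.95 and 13.6 CPM at 0.5 h, 9.01 and 8.32 at 1 h, 7.42 and 6.11 at 2 h, 6.57 and 6.39 at 6 h, and 5.35 and 4.47 at 24 h. Every treated library lay below both NT libraries. The change was -0.72 (SE 0.19, edgeR adjusted p = 0.0185) at 0.5 h, a call that is lost without either NT library or without 0.5 h replicate 1 (edgeR adjusted p = 0.0672 to 0.617) and with DESeq2 (adjusted p = 0.168). It was -1.12 (SE 0.19, edgeR adjusted p = 8.97e-05) at 1 h, -1.48 (SE 0.19, edgeR adjusted p = 3.6e-07) at 2 h and -1.94 (SE 0.20, edgeR adjusted p = 1.4e-09) at 24 h.

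The Utf1 +1.9 kb peak (chr7:139945302-139946262) is intergenic, just past the 3′ end of this short gene, and holds the direct element. Its NT levels were 30.5 and 26.9 CPM. They were followed by 17.7 and 23.9 CPM at 0.5 h, 17.5 and 14.9 at 1 h, 17.0 and 16.1 at 2 h, 16.5 and 15.9 at 6 h, and 8.07 and 8.85 at 24 h. All treated libraries were below NT, with a step down by 1 h, similar levels to 6 h and a further drop at 24 h. The change was -0.82 (SE 0.17, edgeR adjusted p = 0.00109) at 1 h, -0.78 (SE 0.16, edgeR adjusted p = 0.00077) at 2 h and -1.76 (SE 0.18, edgeR adjusted p = 7.66e-10) at 24 h. By contrast the peak over the Utf1 start, at +0.2 kb, had 9.92 and 13.2 CPM in NT and 8.68 and 10.0 CPM at 24 h (-0.27, SE 0.20, edgeR adjusted p = 0.359).

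At Fbxo15 the peak over the start (-0.2 kb) is among the most open of the 37 and holds a direct element. It had 42.9 and 39.2 CPM in NT, 29.1 and 27.7 at 2 h and 24.1 and 23.1 at 24 h, with the 2 h and 24 h libraries all below NT. The change was -0.52 (SE 0.14, edgeR adjusted p = 0.0143) at 2 h and -0.79 (SE 0.15, edgeR adjusted p = 6.95e-05) at 24 h. The -2.2 kb peak went from 7.94 and 6.06 CPM to 3.61 and 4.24 at 2 h and 3.73 and 4.47 at 24 h (-0.79, SE 0.25, edgeR adjusted p = 0.0187 at 24 h). The intronic +11.2 kb peak, which holds a spaced element, had 12.3 CPM in both NT libraries, 9.18 and 9.0 at 2 h and 11.0 and 10.1 at 24 h. It was not called lost at any time (-0.42, SE 0.19, edgeR adjusted p = 0.2 at 2 h, and -0.21, SE 0.18, edgeR adjusted p = 0.458 at 24 h). The -11.6 kb peak had 3.61 and 3.55 CPM in NT and 1.72 and 3.11 at 24 h and was not called either.

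The remaining Fgf4 calls came mostly late. The +13.8 kb peak, 188 bp upstream of the start of the shorter Fgf4 transcript, fell from 22.1 and 17.6 CPM to 13.9 and 12.9 at 2 h (-0.57, SE 0.17, edgeR adjusted p = 0.0222) and stood at 11.8 and 13.2 at 24 h. The +10.0 kb peak, with its composite element, had 26.8 and 34.2 CPM in NT and 23.6 in both 2 h libraries (-0.34, SE 0.15, edgeR adjusted p = 0.214). At 24 h it was down to 18.7 and 17.3 CPM (-0.74, SE 0.16, edgeR adjusted p = 0.000511). The +4.2 kb peak went from 18.9 and 22.2 CPM to 8.98 and 7.10 at 24 h (-1.34, SE 0.20, edgeR adjusted p = 1.98e-06). The weak -18.9 kb peak went from 2.80 and 2.81 CPM to 1.07 and 1.02 at 2 h (-1.40, SE 0.40, edgeR adjusted p = 0.0207). Fgf4 -1.0 kb, the peak nearest to the annotated 5′ end, was not called, with -0.32 at 24 h. That 5′ end is the start of the longer transcript (144847367), and the shorter one starts at 144861386, so the distances and the choice of the peak nearest to the start depend on the transcript.

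Of the 6 calls at 2 h, all but Fgf4 +17.3 kb were lost when NT replicate 1 was left out, with edgeR adjusted p from 0.0528 for Utf1 +1.9 kb to 0.453 for Fgf4 +13.8 kb. DESeq2 called 3 of the 6. The Zfp42 calls were 3, all at 24 h. Its +12.6 kb peak went from 8.84 and 10.1 CPM in NT to 4.84 and 4.86 (-0.94, SE 0.21, edgeR adjusted p = 0.000813). Smaller losses were called at +17.2 kb (-0.51, edgeR adjusted p = 0.0294) and -14.0 kb (-0.52, edgeR adjusted p = 0.012). Over the Zfp42 start, at -0.1 kb, NT levels of 22.7 and 26.0 CPM stood against 23.3 and 22.4 at 24 h.

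**Figure D2:**
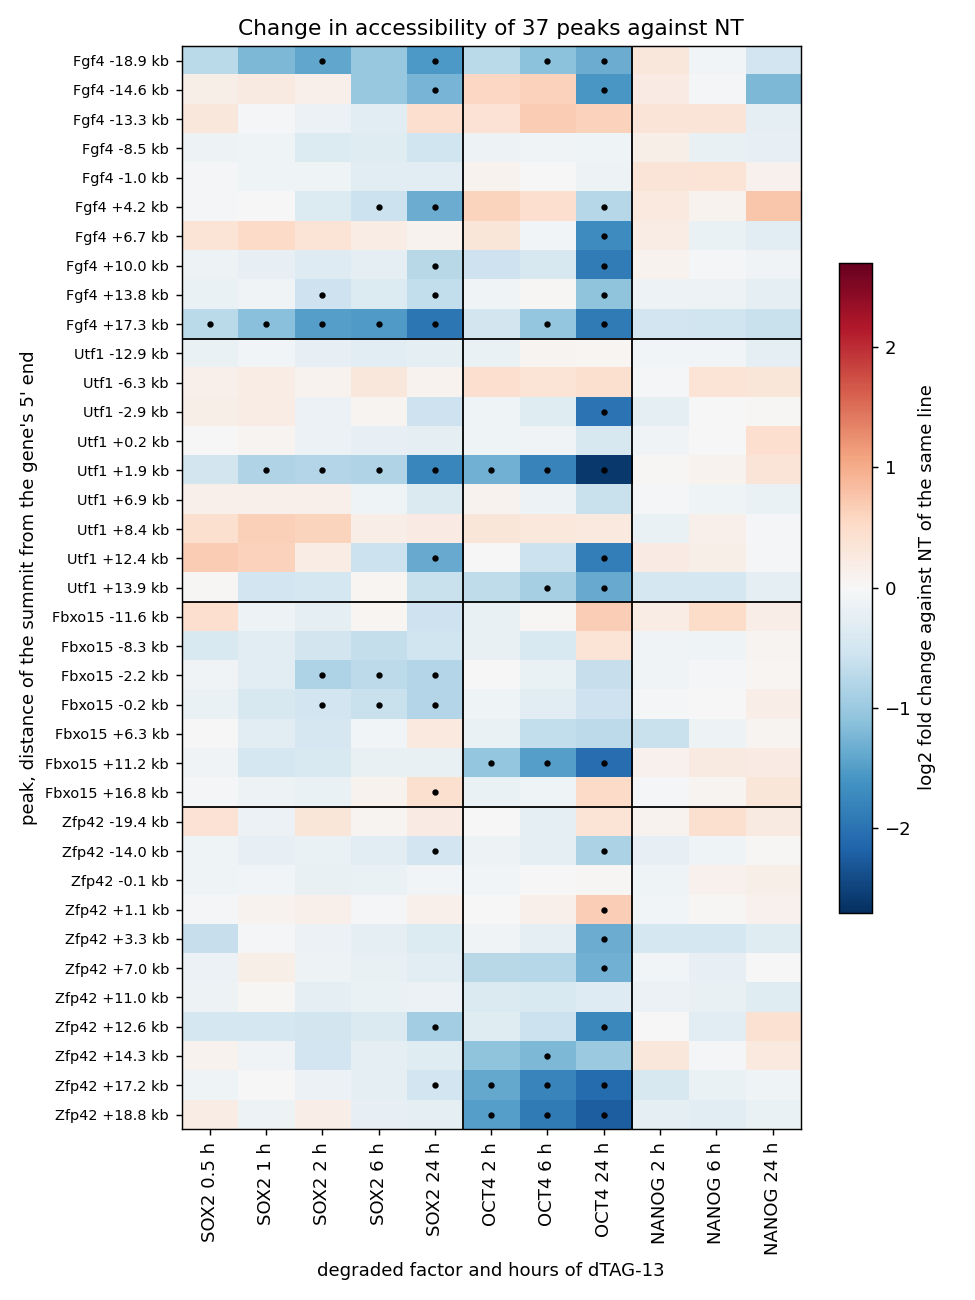
Log2 fold change against NT of the same line (colour, blue lower and red higher) for the 37 peaks (rows, by gene and distance from its 5′ end) in each degraded factor and time (columns); dots mark called peaks. SOX2 columns show 1, 2, 6, 5 and 13 losses, OCT4 columns 4, 8 and 18, and NANOG columns none.

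Loss of OCT4 was called at Zfp42 from 2 h on. The peaks lost at 2 h were Utf1 +1.9 kb, Fbxo15 +11.2 kb and Zfp42 +18.8 and +17.2 kb. None of them is Fgf4 +17.3 kb, the peak called earliest after SOX2 loss. The 3 lines were fitted together on 27 libraries and 166430 peaks. In fits of each line alone, 6 peaks were lost without SOX2 and 4 without OCT4 at 2 h, and 14 and 17 at 24 h. In these fits 8.1% and 3.96% of all peaks were lost at 2 h, and 14.8% and 10.6% at 24 h.

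The lost peaks numbered 4 (10.8%), 8 (21.6%) and 18 (48.6%) of 37 after 2, 6 and 24 h, where 5.1%, 7.97% and 12.7% of all peaks were lost. The median change of the members was -0.14, -0.26 and -0.77. At 24 h these were 7 Fgf4, 4 Utf1, 1 Fbxo15 and 6 Zfp42 peaks. Zfp42 +1.1 kb was called gained (16.7 and 16.8 CPM in NT, 30.8 and 21.2 at 24 h, 0.66, SE 0.24, edgeR adjusted p = 0.037), where 10.8% of all peaks were. Without 24 h replicate 1 this gain was 0.37 (edgeR adjusted p = 0.459), and it was not called with total counts, with at least 10 counts in every library, or in the fit of OCT4-FKBP alone (edgeR adjusted p = 0.0688 to 0.103). In the OCT4-FKBP line libraries with the same replicate number deviated together, and with the replicate as a block 8, 11 and 23 peaks were called lost after these times. The block raised the calls among all peaks too, to 7.41%, 10.9% and 15.9%. The block was fitted by replicate number in every line, also in SOX2-FKBP and NANOG-FKBP, where the numbers were not taken to pair.

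Utf1 +1.9 kb showed the deepest loss among the 37. Its OCT4-FKBP levels were 37.0 and 28.3 CPM in NT, 13.5 and 13.4 at 2 h, 12.9 and 6.21 at 6 h, and 6.01 and 4.54 at 24 h. All treated libraries lay below NT, at mean levels of 41.3%, 29.3% and 16.2% of NT. The change was -1.30 (SE 0.25, edgeR adjusted p = 0.000484) at 2 h, -1.81 (SE 0.26, edgeR adjusted p = 1.42e-06) at 6 h and -2.60 (SE 0.30, edgeR adjusted p = 1.36e-08) at 24 h. The start of Utf1 had 28.0 and 21.6 CPM in NT and 22.6 and 13.3 at 24 h, which is not called (-0.44, edgeR adjusted p = 0.295) but is with the block (-0.46, edgeR adjusted p = 0.0332).

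Fbxo15 +11.2 kb had 15.3 and 15.7 CPM in NT, 7.26 and 7.96 at 2 h, 5.21 and 5.96 at 6 h, and 3.01 and 4.37 at 24 h. Its NT and treated libraries were well separated, and the replicates of each time lay close together. The change was -1.04 (SE 0.21, edgeR adjusted p = 0.000663) at 2 h, -1.50 (SE 0.21, edgeR adjusted p = 1.16e-06) at 6 h and -2.05 (SE 0.25, edgeR adjusted p = 4.58e-08) at 24 h. The Fbxo15 start moved less, from 37.7 and 46.3 CPM to 38.5 and 40.0 at 2 h and 20.4 and 36.0 at 24 h. Its 24 h change of -0.56 (SE 0.23, edgeR adjusted p = 0.0774) is called with the block (-0.57, edgeR adjusted p = 0.00396). That of -2.2 kb is too (-0.62, edgeR adjusted p = 0.0677 without and 0.0299 with it). Both are also called with total counts in place of TMM (edgeR adjusted p = 0.0227 and 0.0479). The same holds with at least 10 counts in every library (edgeR adjusted p = 0.0144 and 0.00776). Without the treated NANOG-FKBP replicate 2 libraries the start is called as well (edgeR adjusted p = 0.0435). The element-bearing -11.6 kb peak, at 3.88 and 3.38 CPM in NT, stood higher at 24 h, at 6.91 and 4.37 (0.67, edgeR adjusted p = 0.13, or 0.0463 with the block).

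The 2 Zfp42 peaks lost at 2 h lie beyond the 3′ end of the gene and hold an octamer and no composite element. The octamer lies 763 bp from the summit at +18.8 kb and 572 bp from it at +17.2 kb. Both peaks also hold the SOX core, and at +17.2 kb a core lies directly beside the octamer. At +18.8 kb the OCT4-FKBP levels were 46.5 and 22.1 CPM in NT, 9.55 and 14.8 at 2 h, 8.68 and 9.79 at 6 h, and 7.07 and 7.29 at 24 h. At +17.2 kb they were 30.2 and 13.7 in NT, 8.45 and 8.36 at 2 h, 8.01 and 4.90 at 6 h, and 6.01 and 4.05 at 24 h. In both peaks the NT libraries differ by about as much as some treated libraries do from NT, though no treated library reached the lower of them. The change at +18.8 kb was -1.49 (SE 0.34, edgeR adjusted p = 0.00234) at 2 h and -2.23 (SE 0.37, edgeR adjusted p = 1.64e-05) at 24 h. That at +17.2 kb was -1.39 (SE 0.37, edgeR adjusted p = 0.0127) and -2.08 (SE 0.42, edgeR adjusted p = 0.000253). Without NT replicate 1, the 2 h changes were -0.86 (edgeR adjusted p = 0.226) and -0.72 (edgeR adjusted p = 0.473), and neither was called. DESeq2 did not call the 2 h loss at +17.2 kb (adjusted p = 0.144). With offsets for each library's chromosome share both peaks were still called at 2 h, 6 h and 24 h.

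Elsewhere at Zfp42, 4 more peaks were called lost at 24 h, none of which holds an octamer, and the start of the gene was not. The +14.3 kb peak was called at 6 h (-1.21, SE 0.37, edgeR adjusted p = 0.0236). At 24 h it was called with the block (-1.0, edgeR adjusted p = 0.0888 without and 0.0162 with it). Its 24 h loss was also called with total counts (edgeR adjusted p = 0.044) and with at least 10 counts in every library (edgeR adjusted p = 0.0269). Without the treated NANOG-FKBP replicate 2 libraries it was called too (edgeR adjusted p = 0.0217). The +12.6 kb peak fell from 11.1 and 8.61 CPM to 3.01 and 2.75 (-1.74, SE 0.39, edgeR adjusted p = 0.000909), and +7.0 and +3.3 kb changed by -1.29 and -1.34. The weaker call at -14.0 kb (-0.86, edgeR adjusted p = 0.0446) was lost with chromosome offsets. At the start the levels were 32.4 and 33.4 CPM in NT and 33.7 and 32.7 at 24 h (0.03, SE 0.23, edgeR adjusted p = 0.943). The octamer peak at +11.0 kb was not called either (-0.35 at 24 h, SE 0.31, edgeR adjusted p = 0.478).

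The Fgf4 enhancer at +17.3 kb was called lost after OCT4 degradation from 6 h on. Its OCT4-FKBP levels were 23.9 and 22.1 CPM in NT, 15.5 and 17.5 at 2 h, 12.4 and 10.5 at 6 h, and 4.66 and 7.45 at 24 h. All treated libraries were below NT, and the levels went down at each time. The 2 h change was -0.49 (SE 0.21, edgeR adjusted p = 0.181), which is called with the block (edgeR adjusted p = 0.0351). It was -1.03 (SE 0.21, edgeR adjusted p = 0.000337) at 6 h and -1.91 (SE 0.24, edgeR adjusted p = 9.21e-08) at 24 h. The +10.0 kb peak had 34.5 and 35.7 CPM in NT, 24.0 and 24.4 at 2 h, 27.3 and 26.2 at 6 h, and 7.67 and 11.0 at 24 h. It was called at 24 h (-1.89, SE 0.31, edgeR adjusted p = 1e-05) and, with the block, at 2 h (-0.56, edgeR adjusted p = 0.303 without and 0.0156 with it).

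At 2 other Fgf4 peaks, +4.2 and -14.6 kb, levels were called above NT at 2 and 6 h with the block, before the losses at 24 h. The +4.2 kb peak had 27.9 and 20.5 CPM in NT, 43.2 and 31.3 at 2 h, 39.8 and 27.9 at 6 h, and 13.4 and 14.6 at 24 h. The 2 h libraries both lay above NT and the 24 h libraries below. Its 2 h change of 0.60 was called only with the block (edgeR adjusted p = 0.146 without and 0.00747 with it), and its 24 h change was -0.77 (SE 0.26, edgeR adjusted p = 0.0249). At -14.6 kb the levels were 5.11 and 6.08 CPM in NT, 6.36 and 10.4 at 2 h, 8.28 and 9.48 at 6 h, and 2.10 and 1.62 at 24 h (-1.56, SE 0.37, edgeR adjusted p = 0.00136 at 24 h). The block calls the 6 h rise there (0.64, edgeR adjusted p = 0.0103). The +13.8 kb peak did not show this, with 22.9 and 20.9 CPM in NT, 25.6 and 20.5 at 6 h, and 10.4 and 9.88 at 24 h (-1.09, SE 0.22, edgeR adjusted p = 0.000196).

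Utf1 had later OCT4 losses in flanking peaks as well. The +13.9 kb peak was called at 6 h (-0.89, SE 0.29, edgeR adjusted p = 0.0359) and 24 h (-1.36, SE 0.36, edgeR adjusted p = 0.00434). The -2.9 kb peak in Kndc1 went from 4.78 and 4.22 CPM to 1.05 and 1.13 at 24 h (-2.00, SE 0.41, edgeR adjusted p = 0.000295). The +12.4 kb peak went from 6.43 and 6.36 CPM to 1.80 and 1.62 (-1.87, SE 0.38, edgeR adjusted p = 0.000307). It is also lost at 24 h without SOX2, from 4.33 and 2.51 CPM to 1.21 and 1.56.

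After NANOG degradation none of the 37 peaks was called lost at 2, 6 or 24 h, where 0.938%, 1.08% and 2.25% of all peaks were. With so low a background, a count of 0 among 37 is near what the share of all peaks gives. At an unadjusted p below 0.05, 1, 1 and 2 members were lower and 0, 0 and 1 higher, and DESeq2 called 0. The count stayed 0 without the treated replicate 2 libraries. The largest fall was at Fgf4 -14.6 kb at 24 h, to 41.4% of NT with all libraries below NT (-1.22, edgeR adjusted p = 0.0587). The largest rise was at Fgf4 +4.2 kb at 24 h, to 169% of NT with all libraries above NT (0.74, edgeR adjusted p = 0.12).

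The Fgf4 enhancer at +17.3 kb came closest among the element-bearing peaks. Its NANOG-FKBP levels were 17.6 and 16.2 CPM in NT, 11.3, 12 and 11.8 at 2 h, 9.60, 12.3 and 13.5 at 6 h, and 10.1, 11.0 and 12.2 at 24 h. All 9 treated libraries lay below both NT libraries. The change was -0.53 (SE 0.22, edgeR adjusted p = 0.481) at 2 h and -0.61 (SE 0.21, edgeR adjusted p = 0.147) at 24 h, and neither passed the test. Utf1 +1.9 kb had 24.5 and 20.4 CPM in NT, 22.2, 25.2 and 21.1 at 2 h, and 22.2, 40.2 and 27.3 at 24 h, so treated and NT libraries overlapped at 2 h (0.02 at 2 h, and 0.35, edgeR adjusted p = 0.67 at 24 h). Fbxo15 +11.2 kb had 11.0 and 12.7 CPM in NT and 13.5, 12.3 and 14.9 at 24 h (0.22, edgeR adjusted p = 0.794). At Zfp42 +18.8 kb NT levels of 22.0 and 47.9 CPM enclosed the 24 h levels of 22.6, 41.1 and 31.6. The library with 47.9 CPM is among the 4 with the higher share of chromosome 8, whose part in this spread was not tested.

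**Figure D3:**
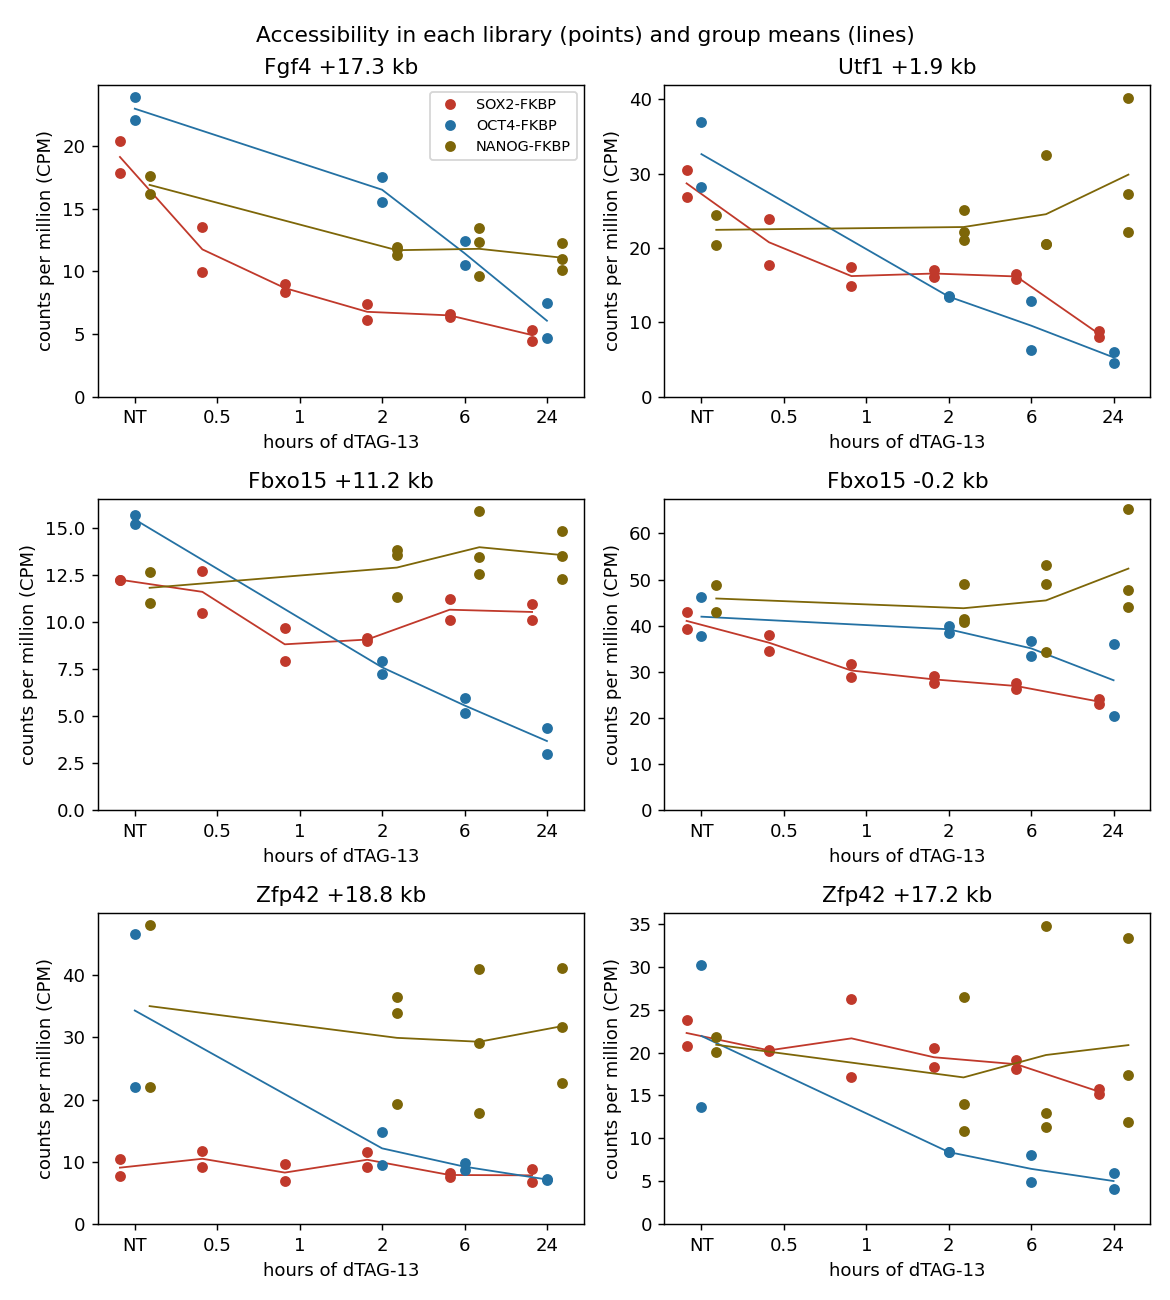
Accessibility in CPM (y axes, from 0) against hours of dTAG-13 (x axes, evenly spaced) at 6 peaks, with a point for each library and lines through the group means of the SOX2-, OCT4- and NANOG-FKBP lines. Fgf4 +17.3 kb goes down in SOX2- and OCT4-FKBP cells, Utf1 +1.9 kb does the same with 16.2% of NT left at 24 h without OCT4, and Fbxo15 +11.2 kb and Zfp42 +18.8 kb were called lost in OCT4-FKBP cells only.

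Joint dependence was read from the fit of all 3 lines, in which SOX2 calls are fewer because the spread is shared with the other lines. There SOX2 loss called 1, 1 and 8 members lost at 2, 6 and 24 h (2.7%, 2.7% and 21.6%, against 5.06%, 6.83% and 10.9% of all peaks) and none gained at 24 h (4.87% of all peaks). With SOX2-FKBP libraries alone and the same peaks the counts were 6, 5 and 14, against 8.1%, 10.1% and 14.8% of all peaks. At 2 h no peak was called lost in both lines, 1 was after SOX2 loss and 4 were after OCT4 loss. With the block Fgf4 +17.3 kb (OCT4 edgeR adjusted p = 0.0351) and Utf1 +1.9 kb (SOX2 edgeR adjusted p = 0.00363) were lost in both at 2 h, and the 12-library fit also called Utf1 +1.9 kb without SOX2 at that time. At 6 h Fgf4 +17.3 kb was lost in both, and 7 others after OCT4 loss. At 24 h there were 6 in both, 2 more after SOX2 loss and 12 more after OCT4 loss, and 16 were called in neither line. The remaining peak was the Zfp42 gain after OCT4 loss.

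The 6 jointly lost peaks were Fgf4 -18.9, +4.2, +13.8 and +17.3 kb and Utf1 +1.9 and +12.4 kb. Of these, 2 hold a composite element, Fgf4 +17.3 kb and Utf1 +1.9 kb. DESeq2 did not call the 24 h loss of Utf1 +12.4 kb without SOX2 (adjusted p = 0.0572). It also did not call those of Fgf4 -18.9 and +4.2 kb without OCT4 (adjusted p = 0.0765 and 0.066). With DESeq2 these peaks were therefore not jointly lost. The Fgf4 +4.2 kb call was also lost in the fit of OCT4-FKBP alone (edgeR adjusted p = 0.0691). Fbxo15 had no jointly called peak, since SOX2 loss called the start and -2.2 kb while OCT4 loss called the intron. With the block OCT4 loss called the start and -2.2 kb too (edgeR adjusted p = 0.00396 and 0.0299), and both were then lost in both lines. Zfp42 had none in this fit. In the 12-library fit, its +17.2, +12.6 and -14.0 kb peaks were lost at 24 h without SOX2, and all 3 were also lost without OCT4. The signs were shared more widely, with 25, 22 and 25 of the 37 negative after either loss at 2, 6 and 24 h. Across the 37 peaks the SOX2 and OCT4 changes had a Pearson r of 0.37, 0.21 and 0.58 (Spearman rho 0.48, 0.15 and 0.53). Neighbouring peaks share libraries and depth, so these are descriptions.

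**Figure D4:**
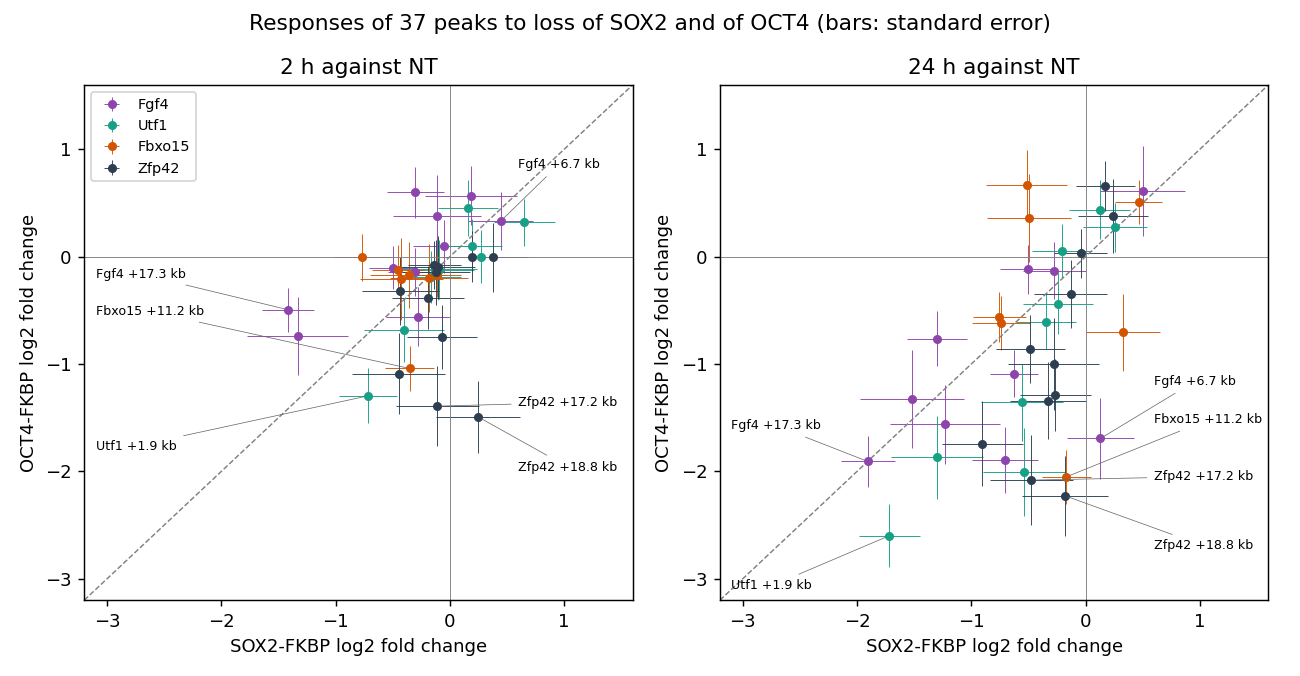
Log2 fold change after SOX2 loss (x axis) and OCT4 loss (y axis) for the 37 peaks at 2 h and 24 h, coloured by gene, with SE bars and a dashed line of equal change. Fgf4 +17.3 kb lies above the line at 2 h and on it at 24 h (-1.91 in both lines), while Fbxo15 +11.2 kb and Zfp42 +18.8 kb lie far below the line at 24 h.

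Whether the responses differ between lines was tested by the difference of the log2 fold changes in the same fit, SOX2 minus OCT4, so that a positive value means a weaker loss without SOX2. At 2, 6 and 24 h, 0, 2 and 3 of the 37 peaks differed, against 1.57%, 2.73% and 2.77% of all peaks. All called differences were positive. With the block 4, 6 and 7 differed. Of these, 2, 2 and 1 were negative, where 3.11%, 4.19% and 3.83% of all peaks were called negative.

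At Fbxo15 +11.2 kb, SOX2-FKBP cells had 74.1%, 87% and 86% of NT at 2, 6 and 24 h, with all these libraries below NT, and the OCT4-FKBP cells fell further. The difference was 0.69 (SE 0.30, edgeR adjusted p = 0.404) at 2 h, 1.36 (SE 0.30, edgeR adjusted p = 0.00487) at 6 h and 1.88 (SE 0.33, edgeR adjusted p = 0.000454) at 24 h. The 24 h call held when any library was left out, and the 6 h call was lost without SOX2-FKBP NT replicate 1 (1.27, edgeR adjusted p = 0.0515) or 6 h replicate 1 (1.20, edgeR adjusted p = 0.0585). Thus a spaced composite element lies in a peak that was not called lost without SOX2. The same peak also holds an octamer, 51 bp from its summit, while the spaced element lies 378 bp from it. Which of these sites the OCT4 response belongs to was not tested. The Fbxo15 start leaned the other way, but its 24 h difference of -0.19 (SE 0.33, edgeR adjusted p = 0.85) did not pass the test.

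At Zfp42 +18.8 kb the SOX2-FKBP levels were 10.5 and 7.69 CPM in NT, 11.5 and 9.17 at 2 h, 8.19 and 7.61 at 6 h, and 8.88 and 6.81 at 24 h. NT and treated libraries overlapped at each of these times. The mean NT level was 9.08 CPM here, against 34.3 in OCT4-FKBP and 35 in NANOG-FKBP cells, and the part of this unequal start in the difference was not tested. The difference from OCT4 was 1.74 (SE 0.50, edgeR adjusted p = 0.0619, with the block 4.83e-05) at 2 h, 1.76 (SE 0.50, edgeR adjusted p = 0.0438) at 6 h and 2.04 (SE 0.53, edgeR adjusted p = 0.0229) at 24 h. Without OCT4-FKBP NT replicate 1 the last 2 were 1.13 (edgeR adjusted p = 0.372) and 1.41 (edgeR adjusted p = 0.187). At +17.2 kb SOX2-FKBP cells had 20.7 and 23.8 CPM in NT and 15.7 and 15.2 at 24 h. The difference there was called with the block (24 h 1.61, edgeR adjusted p = 0.126 without, and 1.58, edgeR adjusted p = 0.000623 with it). Without the treated NANOG-FKBP replicate 2 libraries it was called at 6 h (edgeR adjusted p = 0.00882) and 24 h (edgeR adjusted p = 0.0189). With total counts it was called at 6 h (edgeR adjusted p = 0.0419).

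The third called difference, Fgf4 +6.7 kb at 24 h, holds neither pattern. Its levels were 5.05 and 5.18 CPM in NT and 6.16 and 4.67 at 24 h in SOX2-FKBP cells, and 4.62 and 4.67 against 0.902 and 1.94 in OCT4-FKBP cells. The difference was 1.82 (SE 0.48, edgeR adjusted p = 0.0253), and DESeq2 gave an adjusted p of 0.0519. Without OCT4-FKBP 24 h replicate 1 it was 1.35 (edgeR adjusted p = 0.236).

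At the jointly lost elements the lines differed less than the test could show. At Fgf4 +17.3 kb the difference was -0.92 (SE 0.31) at 2 h, a stronger loss without SOX2 that was called with the block only (edgeR adjusted p = 0.152 without and 0.0192 with it), and -0.45 (SE 0.31, edgeR adjusted p = 0.667) at 6 h. At Utf1 +1.9 kb it was 0.58 (SE 0.36, edgeR adjusted p = 0.706) at 2 h and 0.88 (SE 0.40, edgeR adjusted p = 0.295) at 24 h, and at 6 h 1.04 (SE 0.36, edgeR adjusted p = 0.136), called with the block (1.07, edgeR adjusted p = 0.00276). At Fgf4 +4.2 kb the 2 h difference of -0.90 was called with the block (edgeR adjusted p = 0.273 without and 0.0191 with it). At Fgf4 +10.0 kb the 24 h difference was 1.19 (SE 0.42, edgeR adjusted p = 0.13), called with the block (edgeR adjusted p = 0.0021). These sizes and errors leave room for differences of either kind.

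Against NANOG loss at 2 h, OCT4 loss differed at 2 members (2.52% of all peaks) and SOX2 loss at none (1.75% of all peaks). The 2 were Fbxo15 +11.2 kb (OCT4 minus NANOG -1.15, SE 0.30, edgeR adjusted p = 0.0239) and Utf1 +1.9 kb (-1.32, SE 0.36, edgeR adjusted p = 0.0322). With the block 5 members differed, all with negative values, where 3.45% of all peaks were called negative. The other 3 were Zfp42 +18.8, +17.2 and +14.3 kb. The block also ties replicate numbers in NANOG-FKBP cells, where they were not taken to pair. It puts NT replicate 2, with 7.104% of counts on chromosome 8, beside 2 h replicate 2, with 5.506%. Zfp42 is on that chromosome, so these 3 calls cannot decide whether the lines differ there. For SOX2 the largest element-bearing value was Fgf4 +17.3 kb (SOX2 minus NANOG -0.89, SE 0.31, edgeR adjusted p = 0.191). By edgeR's unadjusted p below 0.05, 4 members differed between SOX2 and NANOG loss, and DESeq2 called 0.

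Among all peaks, those with a direct composite element were lost most often after either depletion. The SOX2 values here are from the fit of the SOX2-FKBP time course, and the OCT4 and NANOG values from the joint fit of the lines. At 2 h 24.1% of peaks with a direct element were lost without SOX2 and 18.3% without OCT4. The shares were 13.6% and 9.22% for the spaced element and 10.3% and 9.67% for the octamer without a composite element. For peaks with none they were 5.38% and 2.9%. In the joint fit the SOX2 shares at 2 h were 18.5%, 9.34%, 7.04% and 3.72%. There the SOX2 and OCT4 shares were close for both kinds of composite element. At 24 h without NANOG the shares were 4.99%, 3.49%, 3.11% and 1.81%. At 24 h without SOX2 the shares of all peaks, in the same order, were 33.8%, 22%, 18.5% and 11.6%. Without OCT4, 12.7% of all peaks tested were lost at 24 h. Of the 6 members with a composite element, 4 were lost at 24 h without SOX2 and 4 without OCT4, with a median change of -0.77 and -1.90. Of the 8 with an octamer and no composite element, 2 and 4 were lost. Of the 23 with neither, 7 and 10 were lost, so losses at 24 h were not limited to peaks with a composite element or an octamer. Some of these lost peaks hold the SOX core, such as Utf1 +12.4 kb. Others, such as Fgf4 +4.2 kb, hold none of the patterns searched. In the joint fit SOX2 loss called 3 of the 6, 1 of the 8 and 4 of the 23 at 24 h, where 10.9% of all peaks were called.

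The levels were also summed over the peaks of each gene. At 24 h the sum at Fgf4 was 56.4% of NT without SOX2, 49.7% without OCT4 and 95% without NANOG. The same values were 65.9%, 62% and 111% at Utf1, 86.3%, 86.9% and 116% at Fbxo15, and 78.7%, 61% and 105% at Zfp42. At 2 h the SOX2 and OCT4 values were 71.6% and 98% at Fgf4, 88.1% and 90.5% at Utf1, 74.9% and 86.6% at Fbxo15, and 88.9% and 71.7% at Zfp42.

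Genes whose summed pattern was most like each member were ranked by the root mean square difference of their log2 ratios to NT over 9 treated conditions, among 13861 genes. They were Pla2g10 (0.101), Prf1 (0.115) and Upp1 (0.124) for Fgf4, and Cpne9 (0.0677), Mapk13 (0.0704) and Rnf125 (0.0886) for Utf1. For Fbxo15 they were Cdc42ep5 (0.0619), Ybx3 (0.0663) and Jag1 (0.0671), and for Zfp42 Apobec1 (0.0871), Tead1 (0.0978) and Rbfa (0.102).

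Other gene lists were counted under the same 20 kb rule, beside 7.28% and 14.1% of all peaks lost without SOX2 at 2 and 24 h and 5.1% and 12.7% without OCT4. SOX2 values here are from the fit of the SOX2-FKBP time course, and OCT4 and NANOG values from the joint fit of the lines. For the 37 peaks SOX2 loss at 2 h called 6 in the former and 1 in the latter. Each count is therefore read against its own background, and SOX2 and OCT4 counts are not compared with each other. Near Nanog, Pou5f1, Sox2, Lefty1, Dppa4 and Spp1, which have known composite elements, 10 of 50 tested peaks (20%) were lost at 2 h without SOX2 and 2 of 52 (3.85%) without OCT4, and at 24 h 16 (32%) and 14 (26.9%). Near 10 naive pluripotency genes such as Esrrb, Klf4 and Tfcp2l1, 15 of 87 (17.2%) and 17 of 87 (19.5%) were lost at 2 h, and 30 (34.5%) and 37 (42.5%) at 24 h. Their median changes at 24 h were -0.42 and -0.40 for the composite genes and -0.35 and -0.73 for the naive genes, beside -0.38 and -0.77 for the 37 peaks and 0.04 and -0.01 for all peaks. Near 5 housekeeping genes 1 of 35 (2.86%) was lost without SOX2 at both times, and 0 and 5 of 38 (13.2%) without OCT4, the last near the background. NANOG loss called 1, 1 and 0 peaks lost at 24 h in these 3 lists.

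Peaks near markers of cell identity were counted as well, with the same separate fits for SOX2 and OCT4, so their counts are not compared with each other. At 24 h without SOX2 and without OCT4, 20 of 60 and 21 of 59 peaks near mESC markers were lost, a list that includes Zfp42 itself. Losses near markers of other types were 3 of 20 and 2 of 21 for primitive endoderm, 7 of 38 and 6 of 38 for trophectoderm, 3 of 25 and 4 of 24 for formative epiblast, and 4 of 20 and 3 of 22 for neural cells, beside 14.1% and 12.7% of all peaks. None of the defining markers had a summed level of 0. The part of a change in cell state in the 24 h values was not tested.

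The window of 20 kb cuts through accessible DNA at Fgf4. The nearest peak outside, at +20.0 kb, had a mean NT level of 24.5 CPM in SOX2-FKBP cells and kept 54.2% of it at 2 h and 42.9% at 24 h, and 94.4% and 27.7% in OCT4-FKBP cells. The outermost Fgf4 peak inside, at -18.9 kb, kept 37.3% and 33.3% without SOX2 and 61.2% and 39.8% without OCT4. At Fbxo15 the +16.8 kb peak inside stood at 134% and 140% of NT at 24 h without SOX2 and OCT4, and the +20.3 kb peak outside at 110% and 88.5%. At Zfp42 the -19.4 kb peak inside stood at 113% and 129%, and the -21.9 kb peak outside at 79.6% and 73.9%. At Utf1 the +13.9 kb peak inside stood at 66% and 38%, and the +20.3 kb peak outside was barely open, at 0.253 to 0.652 CPM in NT.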

How the data were processed

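ATACseq was measured in 31 libraries of 3 degron lines. Alignment by the authors was to mm10 (BWA 0.7.17-r1188, SAMtools 1.10 and Picard 2.12.0 in the submitters' processing notes), with a mapping quality minimum of 10 and without duplicates. MACS2 ran on the merged libraries, and the authors deposited raw counts of fragments per peak. The deposited peak file's fold enrichment (a ratio) and −log10 columns were not used. Of 45 samples, 14 were not analysed here.

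Counts were tested with edgeR 4.0.16 in R 4.3.3 (TMM, quasi-likelihood test, Benjamini-Hochberg over all peaks, threshold 0.05). Peaks had to exceed 10 counts in over 2 of the 12 SOX2-FKBP libraries for the time course, and in over 6 of 27 libraries for the 3 lines. All 37 peaks passed both filters. SE is the size of the log2 fold change over the square root of F. DESeq2 1.42.0, the study's tool, and other alternatives were run. Sites were matched in Python 3.11.15. The tests were checked on simulated data. Full values are given for peaks over gene starts, peaks with composite elements and peaks called at 2 h; other peaks that passed a test are named by their calls.

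The members and lists were chosen with earlier results of these data known. Nothing says that replicates are separate cultures, so p-values measure only the spread between these samples. Total counts per library (1817191 to 17575631) set the precision. Replicate numbers were checked by the correlation of deviations from group means over 33328 peaks. It was 0.369 to 0.613 in all 6 OCT4-FKBP pairs of conditions, over 0.1 in each, so the numbers pair those samples. In SOX2-FKBP 14 of 15 pairs were over 0.1 (0.085 to 0.514) and in NANOG-FKBP 3 of 6 (-0.075 to 0.529), so they were not taken to pair there. The block alternative still used the numbers in every line, so its SOX2 and NANOG calls rest on a pairing that is not established.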

Additional observations from a re-analysis of the deposited data

Results flagged for a closer look

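Responses that differed between lines by edgeR's quasi-likelihood test of the difference are listed here with edgeR adjusted p over all peaks. SOX2 loss and OCT4 loss differed at Fbxo15 +11.2 kb, by 1.36 (SE 0.30, adjusted p = 0.00487) at 6 h and 1.88 (SE 0.33, adjusted p = 0.000454) at 24 h, on the log2 scale and as SOX2 minus OCT4. They differed at Zfp42 +18.8 kb by 1.76 (SE 0.50, adjusted p = 0.0438) at 6 h and 2.04 (SE 0.53, adjusted p = 0.0229) at 24 h, and at Fgf4 +6.7 kb by 1.82 (SE 0.48, adjusted p = 0.0253) at 24 h. At 2 h OCT4 loss and NANOG loss differed at Fbxo15 +11.2 kb by -1.15 (SE 0.30, adjusted p = 0.0239) and at Utf1 +1.9 kb by -1.32 (SE 0.36, adjusted p = 0.0322), as OCT4 minus NANOG. In most fits that left out 1 library both of these calls were lost, with adjusted p of up to 0.152 at Fbxo15 and 0.177 at Utf1. At Zfp42 +18.8 kb the mean NT level was 9.08 CPM in SOX2-FKBP and 34.3 in OCT4-FKBP cells, and the part of this unequal start was not tested. The untreated OCT4-FKBP libraries there had 46.5 and 22.1 CPM, and the part of this spread in the difference was not tested beyond leaving out each library.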

How the results depend on the processing

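Counts of lost peaks are of 37. DESeq2 gave 0, 3 and 3 for SOX2 at 0.5, 2 and 6 h in the 12-library fit, 5 for OCT4 at 6 h, and 1 difference of SOX2 and OCT4 at 6 h. The replicate block gave 2 and 4 for SOX2 at 0.5 and 1 h in the 12-library fit. In the fit of 27 it gave 4 and 5 for SOX2 at 2 and 6 h, 8 for OCT4 at 2 h, 2 for NANOG at 24 h (Fgf4 +17.3 kb at -0.69, edgeR adjusted p = 0.0241, and -14.6 kb at -1.27, edgeR adjusted p = 0.00928), differences of SOX2 and OCT4 at 4, 6 and 7 peaks at 2, 6 and 24 h, and against NANOG 1 (SOX2) and 5 (OCT4). With the block in the fit of 27, the shares of all peaks called lost were 7.44% and 9.54% for SOX2 at 2 and 6 h. They were 7.41% for OCT4 at 2 h and 3.66% for NANOG at 24 h. The block also called a gain at Fgf4 +4.2 kb after NANOG loss at 24 h (0.82, edgeR adjusted p = 0.00555). Separate fits per line gave 6, 5 and 14 for SOX2, against 8.1%, 10.1% and 14.8% of all peaks. Total counts in place of TMM gave 2 for SOX2 at 6 h and differences of 1 at 2 h and 4 at 6 h. A minimum of 10 counts in every library gave 2 for SOX2 at 2 and at 6 h. Leaving out the treated NANOG-FKBP replicate 2 libraries, chosen after seeing the data, gave 2 and 2 for SOX2 at 2 and 6 h, and differences of 1 at 2 h and 5 at 24 h. In the fit of 27 libraries with a window of 10 kb, 0% (SOX2) and 5.56% (OCT4) of members were lost at 2 h, and with 50 kb 5.49% for SOX2. The 12-library fit gave 16.7% for SOX2 with 10 kb. In a window of 200 bp in total, centred on the summit, 2 peaks held a composite element.

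Leaving out 1 library at a time gave 0 to 2, 1 to 2, 1 to 5, 2 to 4 and 6 to 12 for SOX2 from 0.5 to 24 h. In the fit of 27 it gave 1 to 2, 1 to 1 and 3 to 7 for SOX2, 2 to 4, 5 to 6 and 13 to 17 for OCT4, and 0 to 0, 0 to 0 and 0 to 1 for NANOG. Differences of SOX2 and OCT4 ran 0 to 1, 0 to 3 and 1 to 3, and against NANOG 0 to 1 (SOX2) and 0 to 2 (OCT4). Where an arm kept 1 library, it was assumed to vary like the others. Of 266 values for named peaks, DESeq2 lost 13 calls, the block added 30, chromosome offsets, chosen after seeing the data, lost 3, and none reversed. With 2 libraries in most groups and the lowest levels near 1 CPM, small changes in weak peaks were not detectable at this depth.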
